A study of Rattus norvegicus with 167 samples.

Results

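The lesion site was compared with the cord on either side of it 3 days after a complete transection of the rat thoracic spinal cord, in the arm whose gap received no implant. Members were taken by title: the 3 arrays of the lesion site segment of the lesion control (LC) on day 3, set against the 3 arrays of the segment just rostral to it and the 3 of the segment just caudal to it, with the neighbouring cord taken as the mean of the 2 group means. They are 9 of the 167 arrays of the series. The animals were adult female Wistar rats, in which 5 mm of cord was cut out at surgery and the gap was left as it was. Each sample was a 5 mm segment, and the lesion site sample of day 3 is not the cord removed at surgery. It still held RNA of cord tissue, and whether cord bordering the gap lay in it was not tested. In the results the gap stands for this segment. Other arms had the gap filled with a chitosan tube, either empty (ET) or loaded with neurotrophin-3. Of these, the day 3 ET arrays (3 for each of the same segments) serve here as a parallel comparison, 3 uninjured cords give the background level, and LC arrays of days 10, 20 and 30 give the later course. Whether the replicates of a group came from different animals is not in the labels; if they did not, the p-values reflect technical spread alone. The small number of arrays limits the precision.

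A cut through the cord severs axons and vessels and lets blood into the gap. Platelets, neutrophils and then monocytes enter, fibroblasts from meninges and vessel walls lay down collagen, and glia at the edges turn reactive, so that a fibrous core comes to lie inside a glial border. On Affymetrix arrays this shows as RNA of the tissue in the gap beside RNA of spared but reacting cord. In such bulk samples fewer cells of a type and less RNA per cell cannot be told apart.

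Values are the log2 levels deposited by the authors. A difference is the mean of the lesion site minus that of neighbouring cord, with the standard error (SE) of the fit, so that 1 is a 2-fold change. Values of 3 arrays are given in the order of their replicate numbers. Over the 11187 tested genes, pairs of lesion site arrays correlated at 0.981 or more and pairs of neighbouring arrays at 0.975 or more. Lesion site with neighbouring arrays correlated at 0.833 to 0.927. The lesion site still gave the markers of cord tissue: the myelin gene Mbp (14.21, 14.08 and 13.84), the astrocyte gene Gfap (12.77, 12.48 and 12.12) and the synaptic gene Snap25 (11.62, 11.60 and 10.63). The difference between the 3' and 5' probe sets of beta-actin, a sign of RNA quality, averaged 1.32 (SD 0.17, n = 3) at the lesion site, 1.22 (SD 0.51, n = 3) rostrally and 1.11 (SD 0.05, n = 3) caudally.

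Lesion site arrays 2 and 3 stood apart in markers of tissue from outside the cord. The mean level of 21 skeletal muscle genes was 6.55, 7.07 and 9.13 at the lesion site, against 5.88 to 6.18 in the 6 neighbouring arrays and 6.04 to 6.13 in uninjured cord. The mean of 10 genes of peripheral sensory neurons was 7.80, 9.16 and 7.42, against 7.62 to 7.80. Muscle genes were therefore highest in lesion site array 3 and sensory neuron genes in array 2. In ET the muscle list stood at 7.57 and 7.89 in rostral and caudal array 3, against 5.76 to 5.93 in the other 7 arrays. ET rostral array 2 stood apart in neutrophil genes, whose list mean was 9.31 there, 7.35 to 7.83 in the other neighbouring ET arrays and 8.56 to 8.83 in the ET gap. Counts over the lists are given without an array where leaving it out moves them by more than 1.5 times, and the part of these tissues in other results was not tested.

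**Figure D1:**
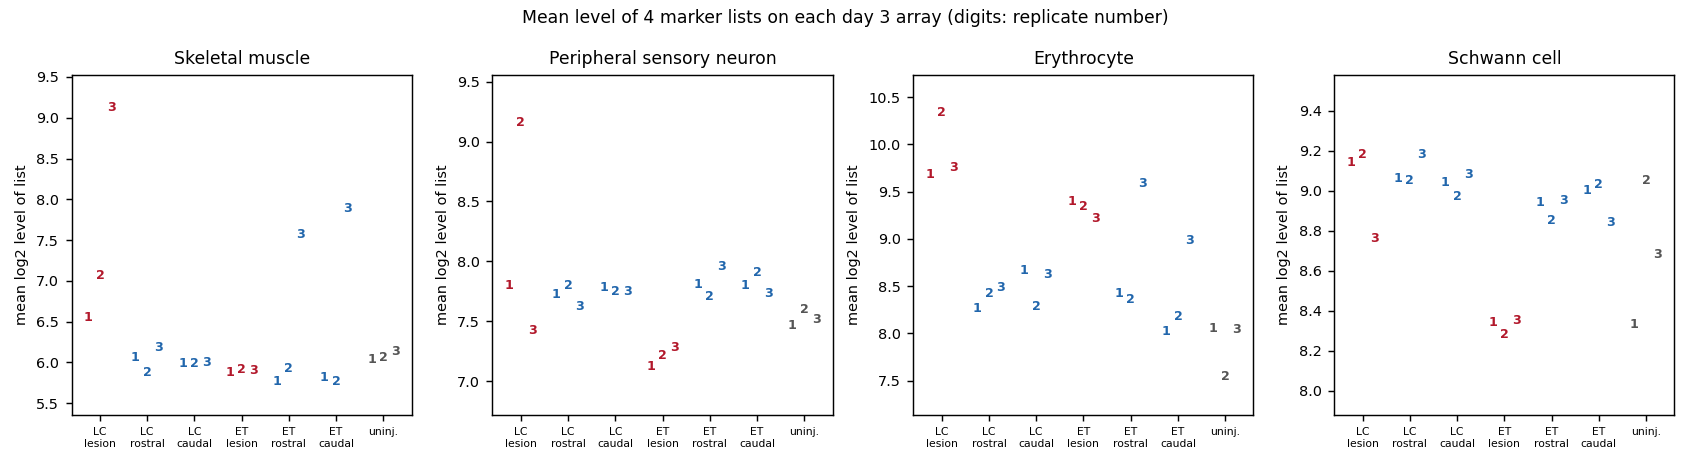
Mean log2 level of the genes of 4 marker lists on each day 3 array, by arm and segment (LC, ET and uninjured cord); digits are replicate numbers, red marks the lesion site. Lesion site array 3 of LC is highest for skeletal muscle (9.13), array 2 for peripheral sensory neurons (9.16), and all 3 LC lesion site arrays (9.68 to 10.34) lie above LC neighbouring cord for erythrocyte genes.

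Gene activity at the lesion site differed widely from that of the adjoining cord. Genes of chemokines, collagens, matrix proteases and blood cells were higher, and genes of neurons, myelin and resting astrocytes were lower. Of 11187 genes tested with limma, 6507 (58.2%) passed an adjusted p of 0.05, 3252 higher (29.1%) and 3255 lower (29.1%). At least 2-fold, 661 were higher (5.91%) and 937 lower (8.38%), and the 3 lesion site arrays lay beyond all 6 neighbouring arrays for 654 and 925 of these. The median difference over all tested genes was 0.018. With 58.2% of genes called, the call alone says little of a gene, and sizes are given throughout. Lesion site arrays 2 and 3 left out together, with 1 array assumed to vary like the other groups, left 3476 calls (1384 higher and 2092 lower). Of the 661 higher genes, neighbouring cord was itself more than 1 log2 above uninjured cord for 328 and within 1 log2 for 333. Of the 937 lower genes, neighbouring cord was more than 1 log2 below uninjured cord for 408, within 1 log2 for 484 and more than 1 log2 above it for 45.

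Testing needed a level over an array's 40th percentile (6.5 to 6.55) in at least 3 arrays. Of the tested genes 268 passed only through the gap and 198 of them were called higher, while 276 had no lesion site array above that level and 262 of them were called lower. Such genes had to differ to be tested, so rank and p-value say little of them. Among those named here the first kind holds Tnn, Mmp13, Gdf10, Myl1, Myl11, Srpx2, Sfrp2, Ccl21, Il1rn and Mmp9. It also holds Cfi, Ms4a1, Epb42, Steap3, Tgm1, Car9, Selp, Trib3, Cxcl13 and Tyrp1. The second kind holds Slc32a1, Gabrb2, Ncan, Ntrk3, Dynlrb2, Olfm3, Plin4 and Spetex2l1. For several lists that the filter bears on, the count without a filter is given too.

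Of the tested genes the largest difference was that of Tnn, encoding tenascin-N, a matrix glycoprotein. It stood at 9.77, 11.47 and 10.81 at the lesion site, at 5.31, 5.84 and 4.67 rostrally and at 6.71, 6.99 and 5.67 caudally (difference 4.82, SE 0.40, adjusted p = 7.5e-06, or 28.2-fold). All lesion site arrays lay above all neighbouring arrays, and uninjured cord averaged 4.63 (SD 0.45, n = 3). The angiotensin receptor gene Agtr1a stood at 10.59, 10.98 and 11.10, against 6.70 to 7.10 in neighbouring cord (3.98, SE 0.12, adjusted p = 1.5e-07). The other genes among the 12 highest with groups apart were Mmp13 (4.20), Car3 (4.06), Myl1 (4.04), Cxcl2 (3.74), the small matrix proteoglycan gene Aspn (3.69), the TGF-beta family gene Gdf10 (3.65), Myl11 (3.57), the matrix-associated gene Srpx2 (3.52), the secreted Wnt modulator gene Sfrp2 (3.42) and the desmosome gene Dsc2 (3.21). Myl1 and Myl11, both myosin light chains of fast muscle, and Car3, a carbonic anhydrase abundant in muscle and fat, rose along with the muscle list. At the lesion site Myl1 stood at 8.56, 9.70 and 12.40, highest in array 3. Without that array the differences were 2.94 for Myl1, 2.25 for Myl11 and 3.54 for Car3.

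Genes of the chemokines that call neutrophils were higher at the lesion site. Cxcl2, a ligand of the neutrophil receptor, stood at 11.95, 10.76 and 12.20 at the lesion site, 8.33, 6.55 and 6.83 rostrally and 8.48, 8.18 and 8.99 caudally. The groups did not overlap (3.74, SE 0.41, adjusted p = 3.8e-05, or 13.4-fold), and uninjured cord averaged 4.60. Cxcl3 (2.58, SE 0.24) and Cxcl1 (1.55, SE 0.24) completed the list: 3 of 3 tested genes of neutrophil-attracting chemokines were higher, with a median of 2.58 against 0.018 over all genes. Without a filter 4 of 5 were higher (median 1.55). Of CC chemokines, which act mainly on monocytes and lymphocytes, 9 of 11 were higher and 0 lower (median 1.05), or 10 of 14 without a filter. They were led by the lymphoid chemokine gene Ccl21 (2.53, SE 0.23), Ccl3 (2.10, SE 0.23) and Ccl20 (1.90, SE 0.32). Ccl2, the main monocyte attractant and not among the genes the naming rule gives, differed by 0.52.

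Of 9 cytokine genes 7 were higher and 0 lower (median 0.84), and 4 were with lesion site array 1, 2 or 3 left out, since 3 of the 9 passed the filter only through the gap. Without a filter 8 of 16 were higher. Il1b, the inflammatory cytokine interleukin-1 beta, stood at 10.63, 9.70 and 10.21 against 6.96 to 8.04 in neighbouring cord (2.64, SE 0.22, adjusted p = 6.9e-06, or 6.24-fold). Every lesion site array lay more than 1 log2 above the highest neighbouring array. Its natural antagonist gene Il1rn (1.71, SE 0.11) and Il6 (1.53, SE 0.24) rose with it. Il6 stood at 9.61, 8.71 and 9.48 at the lesion site and at 7.01 to 8.22 beside it, with 3.94 in uninjured cord, so most of its distance from uninjured cord was present in the neighbouring segments too.

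The promoters of 2 of these genes and of the collagenase gene Mmp13, described further on, are shown because they hold short motifs of transcription factors of inflammation. The windows are the 250 bases before the gene start in RefSeq, build GRCr8, read in the direction of the gene; capitals mark the match. They were chosen after the match was found.
Cxcl1: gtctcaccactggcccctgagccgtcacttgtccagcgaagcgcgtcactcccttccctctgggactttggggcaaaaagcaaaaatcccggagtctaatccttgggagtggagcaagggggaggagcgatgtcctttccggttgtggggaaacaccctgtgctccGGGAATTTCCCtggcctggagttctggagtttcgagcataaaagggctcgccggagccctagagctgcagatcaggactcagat
Il6: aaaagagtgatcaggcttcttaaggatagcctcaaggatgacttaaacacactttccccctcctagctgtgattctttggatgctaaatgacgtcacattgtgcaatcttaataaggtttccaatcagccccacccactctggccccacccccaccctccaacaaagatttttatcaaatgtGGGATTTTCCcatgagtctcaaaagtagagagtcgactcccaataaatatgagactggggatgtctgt
Mmp13: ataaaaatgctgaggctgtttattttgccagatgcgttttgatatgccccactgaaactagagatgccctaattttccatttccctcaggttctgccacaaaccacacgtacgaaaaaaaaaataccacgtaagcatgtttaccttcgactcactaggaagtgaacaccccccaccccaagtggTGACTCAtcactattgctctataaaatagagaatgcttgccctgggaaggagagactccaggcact
Cxcl1 lies on chromosome 14 (chr14:17479322-17479571, minus strand), Il6 on chromosome 4 (chr4:5894576-5894825, minus strand) and Mmp13 on chromosome 8 (chr8:12782579-12782828, plus strand). The motif searched in chemokine and cytokine promoters on both strands was GGGA, any 2 bases, then TTCC, a form of the NF-kB motif. In Cxcl1 its 2 matches, on opposite strands, overlap and begin 84 bases before the start; Il6 holds 1, beginning 68 bases before it. Of 33469 promoters of that length 361 (1.08%) hold the motif, against 1 of 2 neutrophil-attracting chemokine genes with a promoter in the table, 1 of 7 CC chemokine genes (Ccl7) and 1 of 7 cytokine genes. TGANTCA, the AP-1 motif, is in 2122 of 33469 promoters (6.34%) and in 3 of 12 of the matrix protease list (Mmp13, Mmp3 and Plaur). That of Mmp13 begins 66 bases before the start. A match is a description of the letters and does not show that a factor binds there.

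**Figure D2:**
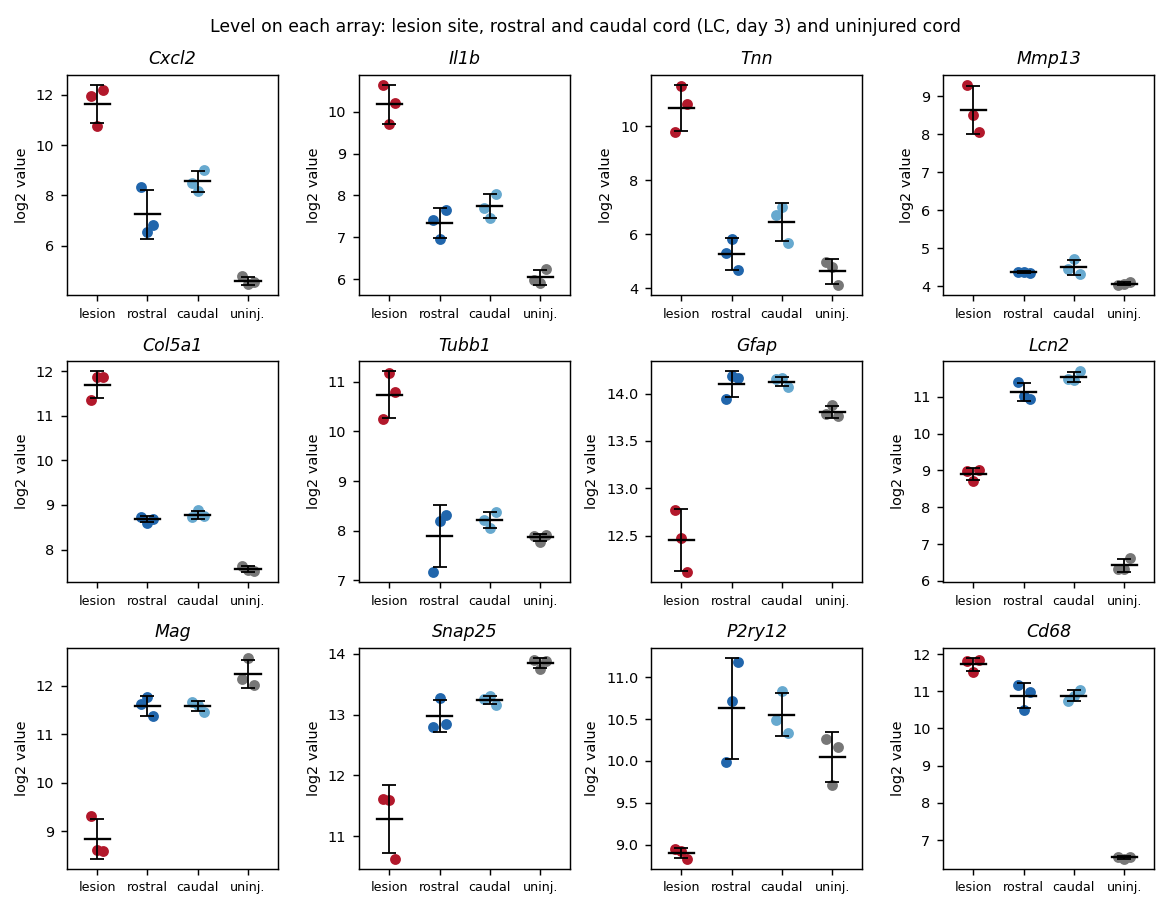
Log2 level of 12 genes on each array of the lesion site, rostral cord and caudal cord of LC on day 3 and of uninjured cord (3 arrays each); horizontal bars are group means and vertical bars SD, and each panel has its own vertical scale. The lesion site lies above both neighbours for Cxcl2, Il1b, Tnn, Mmp13, Col5a1, Tubb1 and Cd68, and below both for Gfap, Lcn2, Mag, Snap25 and P2ry12.

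Leukocyte genes followed their cell type. Of 6 neutrophil genes 5 were higher and 0 lower (median 1.14), or 7 of 8 without a filter. Mmp9, the gelatinase carried in neutrophil granules, stood at 10.01, 9.01 and 9.66 against 5.49 to 7.01 (3.19, SE 0.31, adjusted p = 1.6e-05), and the decoy interleukin-1 receptor gene Il1r2 differed by 2.53 (SE 0.37). All 3 lesion site arrays exceeded all 6 neighbours for both. Of 13 genes of infiltrating monocytes and macrophages 9 were higher and 2 lower (median 1.16). The higher ones were led by the transglutaminase gene F13a1 (2.46, SE 0.15), the arginase gene Arg1 (2.22, SE 0.13) and the chemokine receptor gene Ccr1 (2.04, SE 0.28). The lower ones were Chi3l1 (-1.10, SE 0.12), which reactive astrocytes also express, and Plac8 (-0.65, SE 0.08).

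Genes that all phagocytes share moved both ways, 6 higher and 4 lower of 15 (median 0.29). The lysosomal gene Cd68 stood at 11.80, 11.53 and 11.83 at the lesion site, above 10.50 to 11.16 in neighbouring cord (0.84, SE 0.14, adjusted p = 6.7e-04). Aif1, the microglia and macrophage gene for Iba1, stood at 11.08, 10.52 and 10.99, below 11.65 to 11.86 (-0.90, SE 0.12, adjusted p = 1.4e-04). Both were far above uninjured cord (6.54 and 9.53), and for both the 2 sites did not overlap. Genes of resident microglia were mostly lower at the lesion site, 7 lower and 2 higher of 11 (median -0.92). P2ry12, the purine receptor of surveying microglia, stood at 8.95, 8.92 and 8.83 against 9.99 to 11.18 (-1.69, SE 0.22, adjusted p = 9.8e-05), below the 10.05 of uninjured cord as well. The microglial regulator gene Sall1 (-1.97, SE 0.17) and the receptor gene Gpr84 (-1.88, SE 0.21) fell with it. Those that rose were Tmem119 (0.75, SE 0.10) and Olfml3 (2.29, SE 0.11), the latter a secreted matrix protein that fibroblasts also make.

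Complement genes divided by subunit. The 3 chains of C1q, which microglia and macrophages make, were lower at the lesion site: C1qa (-1.12, SE 0.13), C1qb (-1.38, SE 0.13) and C1qc (-1.13, SE 0.14). C1qb stood at 11.59, 11.17 and 10.92 against 12.47 to 12.71, with 9.39 in uninjured cord, so it was raised at both sites but less in the gap. The protease gene C1s (1.05, SE 0.12), the inhibitor gene Cfi (1.80, SE 0.22) and the receptor gene C5ar1 (1.09, SE 0.14) were higher. In all 8 of 13 were higher and 3 lower (median 0.73). Of 17 interferon response genes 7 were higher and 3 lower (median 0.26), with Ifit3 (2.07, SE 0.20), Rsad2 (1.90, SE 0.24) and Irf7 (1.2, SE 0.21) up and the chemokine gene Cxcl11 (-1.38, SE 0.28) down. Of 8 genes of MHC class II, which presents antigen to helper T cells, 1 was higher and 2 lower (median 0.10). RT1-Bb stood at 7.22, 7.79 and 7.84 against 7.22 to 7.72 and the groups overlapped (0.14, SE 0.13, adjusted p = 0.4). Without lesion site array 2 the class II counts were 0 higher and 1 lower, and without array 3 there were 0 higher. Few lymphocyte genes passed the filter; of 5 genes of T and NK cells the CD8 chain genes Cd8a (0.95, SE 0.22) and Cd8b (0.57, SE 0.13) were higher, and of B and plasma cells the only 1 tested, Ms4a1, was (0.68, SE 0.16). Ms4a1 passed the filter only through the 3 lesion site arrays, and 4 T and NK cell genes were higher without rostral array 3. Without a filter 7 of 15 T and NK cell genes were higher and 0 lower (median 0.31).

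Genes of blood cells were higher in the gap. Of erythrocyte genes 6 of 6 were higher (median 1.60) and of platelet genes 5 of 5 (median 1.26), with 0 lower in both. In each list 1 gene passed the filter only through the gap; without a filter 6 of 7 and 7 of 7 were higher. Slc4a1, the anion exchanger of the red cell membrane, stood at 10.65, 11.19 and 10.34, against 7.73 to 8.70 in neighbouring cord and 6.91 in uninjured cord (2.55, SE 0.23, adjusted p = 1.1e-05). Epb42 (2.30, SE 0.24) and the haem synthesis gene Alas2 (1.92, SE 0.21) rose with it. Tubb1, the tubulin of platelets, stood at 10.25, 11.18 and 10.79 against 7.17 to 8.37, with 7.86 in uninjured cord (2.69, SE 0.26, adjusted p = 1.7e-05). Neighbouring cord lay 0.19 above uninjured cord for Tubb1 and 1.26 above it for Slc4a1. Genes of haem and iron handling went both ways, 6 higher and 3 lower of 11 (median 0.44): the iron reductase gene Steap3 (1.72, SE 0.16) and the haemoglobin scavenger gene Hp (1.66, SE 0.15) were higher, and Lcn2 was lower.

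Collagen and fibroblast matrix genes were higher almost throughout, 26 of 28, with 1 lower (median 1.81 against 0.018 over all genes). Col5a1, a chain that starts collagen fibrils, stood at 11.35, 11.87 and 11.86 at the lesion site, 8.73, 8.60 and 8.69 rostrally and 8.72, 8.88 and 8.74 caudally (2.97, SE 0.12, adjusted p = 4.3e-07, or 7.83-fold). No array of the gap came within 2 log2 units of the cord beside it. Col1a1, the main fibrillar collagen (2.72, SE 0.11), and Col8a1 (2.71, SE 0.16) followed. The lower member was Pdpn (-0.30, SE 0.11, adjusted p = 0.0440), a gene of fibroblasts and reactive glia, whose call was lost when lesion site array 2 or 3 or any caudal array was left out, without a filter and after quantile normalization. Neighbouring cord was itself above uninjured cord for these genes, by a median of 2.09, and the gap by 4.06.

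Of 15 basement membrane genes 12 were higher and 0 lower (median 0.95), and 1 was lower without lesion site array 1 or rostral array 1. Nid2, which links laminin and collagen IV, stood at 10.69, 10.86 and 11 against 8.44 to 9.14 (2.02, SE 0.16), and the laminin chain genes Lama4 (1.97, SE 0.12) and Lamb1 (1.78, SE 0.14) rose likewise. Of 17 genes of matrix proteases and their inhibitors 14 were higher and 2 lower (median 0.63). Mmp13, a collagenase, stood at 9.31, 8.52 and 8.06, against 4.31 to 4.71 in neighbouring cord and 4.06 in uninjured cord (4.20, SE 0.22, adjusted p = 1.1e-06, or 18.4-fold). Below the level at which genes were tested in every array but those of the gap, it passed the filter through the lesion site alone. Mmp2 (1.98, SE 0.08) and the aggrecanase gene Adamts5 (1.81, SE 0.13) were higher, and the inhibitor gene Timp4 (-1.67, SE 0.17) and a second aggrecanase gene, Adamts4 (-0.88, SE 0.13), were lower.

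Of 22 genes of TGF-beta and BMP signalling, the pathway that drives matrix production, 17 were higher and 1 lower (median 0.88). The activin chain gene Inhba stood at 11.58, 11.87 and 11.95 against 9.09 to 9.74 (2.34, SE 0.12), and its antagonist gene, follistatin (Fst), at 10.03, 9.96 and 10.73 against 6.6 to 7.60 (3.07, SE 0.24). Ligand and antagonist were thus both clear of the cord beside the gap. The matrix target Tgfbi was higher by 2.49 (SE 0.08), and the inhibitor of differentiation Id4, expressed by astrocytes, was lower (-1.58, SE 0.18).

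Chondroitin sulfate proteoglycans and their link proteins, a matrix class known to stop growing axons, were mostly lower at the lesion site, 7 lower and 2 higher of 10 (median -1.50). Of these 10, 3 had no lesion site array above the filter level. Without a filter 7 of 11 were lower and 2 higher (median -1.38). Ncan, neurocan, stood at 6.09, 5.86 and 5.39 in the gap, at 7.30, 7.61 and 7.96 rostrally and at 7.80, 7.73 and 7.82 caudally (-1.93, SE 0.17, adjusted p = 9.4e-06). Uninjured cord averaged 5.90 (SD 0.14, n = 3), so the cord beside the gap lay above that level and the gap near it. The link protein genes of nodes and perineuronal nets, Hapln2 (-2.47, SE 0.21) and Hapln4 (-2.27, SE 0.25), were lower in the gap. The higher ones were aggrecan, Acan (1.04, SE 0.10), and versican, Vcan (0.96, SE 0.13), both of connective tissue too. Vcan was read from its brightest probe set, and its less bright ones differed by 1.84 to 2.30.

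Genes of reactive astrocytes split, 6 higher and 6 lower of 17 (median 0.04), while those of resting astrocytes were lower, 16 of 19 with 0 higher (median -1.58). Gfap, the intermediate filament of astrocytes, stood at 13.94 to 14.19 in neighbouring cord, above the 13.81 (SD 0.07, n = 3) of uninjured cord, and at 12.12 to 12.77 at the lesion site (-1.66, SE 0.13, adjusted p = 5.5e-06, or 3.15-fold lower). Serpina3n, a protease inhibitor of reactive astrocytes, stood at 8.32, 7.70 and 7.01 in the gap and 9.0 to 10.69 beside it, with 4.79 in uninjured cord (-2.30, SE 0.35). Fabp7 (-1.98, SE 0.17) and the small heat shock gene Hspb1 (-1.90, SE 0.21) were lower in the same way. The higher members, Tgm1 (0.95, SE 0.18), Emp1 (0.91, SE 0.12) and Cd44 (0.63, SE 0.11), are expressed by many other cells as well. Lcn2, the iron-binding acute phase protein, showed the same order: 8.99, 8.72 and 9.0 in the gap, 10.94 to 11.69 beside it and 6.42 in uninjured cord (-2.43, SE 0.12, adjusted p = 9.6e-07). Among resting astrocyte genes the receptor gene Ntsr2 (-2.59, SE 0.27), the sodium pump subunit gene Atp1b2 (-2.35, SE 0.16) and Mlc1 (-2.32, SE 0.18) were lowest, and Mt3 (-2.90), Slc14a1 (-2.69) and Cldn10 (-2.66), also known from astrocytes, were among the 12 lowest genes with groups apart. In resting astrocytes 1 gene was higher without caudal array 2 or rostral array 2.

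All 23 tested genes of myelin and oligodendrocytes were lower (median -1.57). Mag, the myelin-associated glycoprotein, stood at 9.31, 8.61 and 8.60 at the lesion site, 11.62, 11.77 and 11.37 rostrally, 11.67, 11.61 and 11.46 caudally and 12.24 (SD 0.29, n = 3) in uninjured cord (-2.75, SE 0.16, adjusted p = 1.7e-06, or 6.71-fold lower). The cytoskeletal gene Ermn (-2.57, SE 0.22) was close to it. Mbp fell by 0.52 (SE 0.09) on its brightest probe set, at levels of 13.84 to 14.62 where the arrays reach no higher than 15, and its 2 less bright probe sets differed by -1.24 and -1.16. The myelin protease gene Klk6 (-2.78, SE 0.24) averaged 12.76 in neighbouring cord and 12.29 in uninjured cord, and was among the 12 lowest in the gap. Of 8 genes of oligodendrocyte precursors 6 were lower and 1 higher (median -1.32). The transcription factor gene Olig1 was lower (-2.0, SE 0.13), while the growth factor receptor gene Pdgfra, which fibroblasts also express, was higher (0.91, SE 0.13), and 2 were higher without rostral array 1. Of 7 genes of ependyma and motile cilia 6 were lower, led by Dynlrb2 (-2.0, SE 0.15), and 1 higher, Mlf1 (0.74, SE 0.28), with arrays 6.81, 7.02 and 8.28 that overlapped neighbouring cord. Mlf1 lost its call without lesion site array 3, any caudal array, or rostral array 1 or 2. Of the 7 ependyma and cilia genes 3 had no lesion site array above the filter level. Without a filter 9 of 13 were lower and 1 higher (median -0.41).

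Every tested gene of the neuron list was lower, 24 of 24 (median -1.80). Snap25, of the synaptic vesicle fusion machinery, stood at 11.62, 11.60 and 10.63 at the lesion site against 12.80 to 13.30 beside it and 13.84 in uninjured cord (-1.82, SE 0.21, adjusted p = 4.8e-05). The internexin gene Ina (-2.77, SE 0.19), the calcium sensor gene Vsnl1 (-2.49, SE 0.21) and the complexin gene Cplx1 (-2.49, SE 0.25) were lowest. The decline ran through transmitter genes (7 of 7 lower, median -1.87), receptors of glutamate, GABA and glycine (16 of 16, median -1.46) and voltage-gated channels (14 of 17, with 0 higher, median -1.37). Of these 2, 7 and 3 genes had no lesion site array above the filter level. Without a filter 7 of 11, 21 of 26 and 15 of 20 were lower, with medians of -1.46, -1.09 and -1.22, and 0 were higher. Slc32a1, which loads GABA and glycine into vesicles, stood at 6.22, 5.13 and 6.01 against 7.58 to 8.73 (-2.55, SE 0.26). The choline transporter gene Slc5a7 (-2.62, SE 0.41), the GABA receptor gene Gabrb2 (-2.30, SE 0.26) and the potassium channel gene Kcnc2 (-2.65, SE 0.19) were at the low end of their lists. Olfm3 (-2.78), Lamp5 (-2.76) and Uts2 (-2.66) were among the 12 lowest genes, beside Ccdc81 (-2.99, SE 0.24), Ppp1r14a (-2.71) and Tmem200c (-2.66). Of 8 motor neuron genes 5 were lower and 1 higher (median -1.67). The higher was the guidance gene Slit3 (1.24, SE 0.14). Without a filter 5 of 10 were lower and 2 higher (median -1.13).

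**Figure D3:**
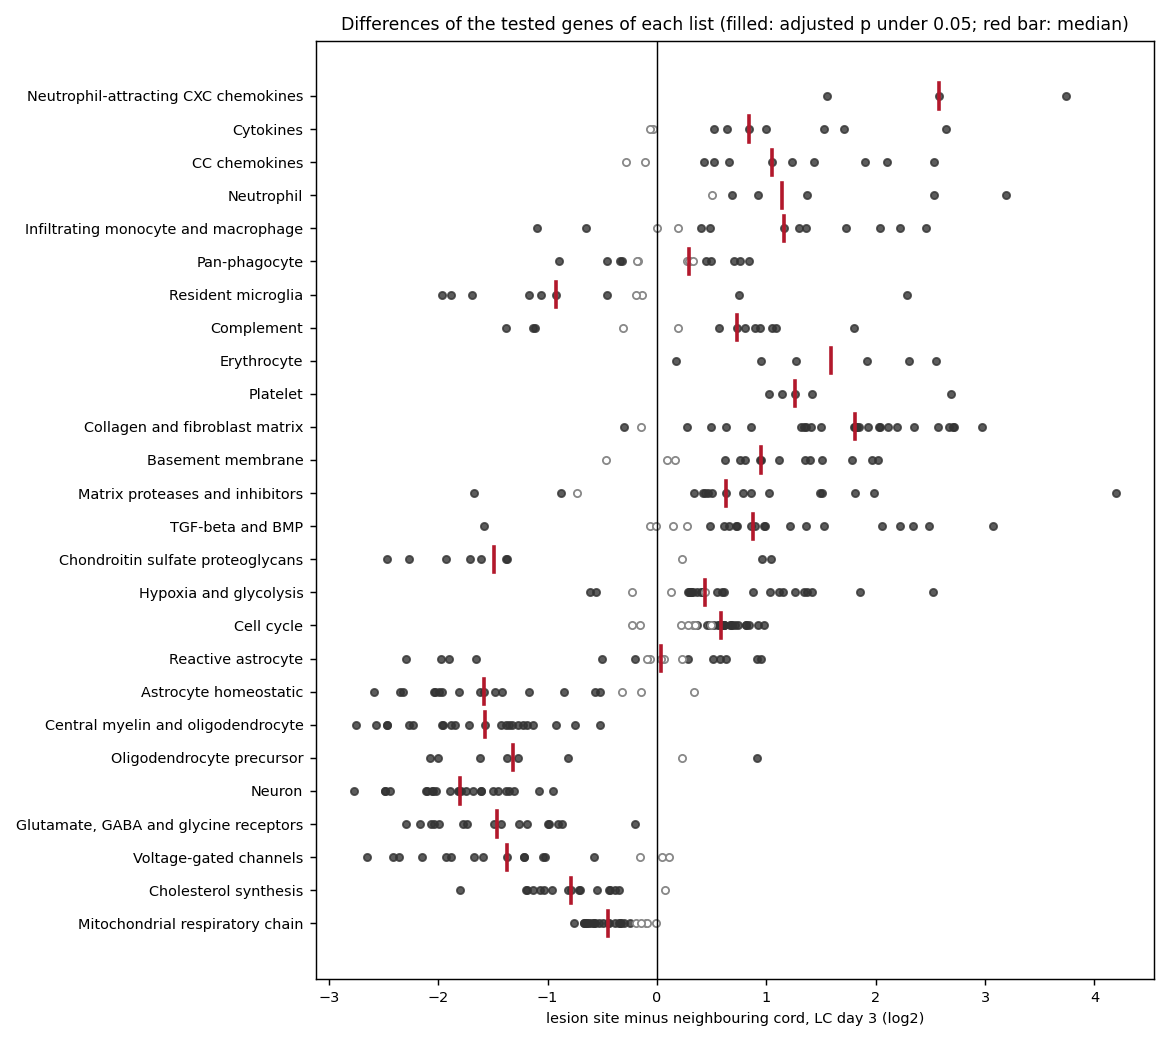
Difference between lesion site and neighbouring cord (log2) of each tested gene in 26 gene lists, LC on day 3; filled points passed an adjusted p of 0.05, open points did not, and red bars are list medians. Medians run from 2.58 for neutrophil-attracting chemokines to -1.80 for neurons, against 0.018 over all genes.

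Sensory neuron genes did not follow the other neuronal lists in LC: 3 of 6 were higher and 1 lower (median 0.44). Without a filter 5 of 10 were higher and 1 lower (median 0.68). Without lesion site array 2, 2 were lower. In ET 2 of 7 were higher and 4 lower (median -0.46). The higher ones in LC were led by Runx1 (1.17), and the lower one was Tac1 (-1.56). Runx1 averaged 10.75 in the ET gap too, against 9.46 rostrally and 9.64 caudally, although the list was mostly lower in ET. Which cells gave its RNA was not tested. Avil, the advillin gene of dorsal root ganglion neurons, stood at 8.66, 10.22 and 8.32, highest in lesion site array 2, against 7.76 to 8.39 (1.08, SE 0.34, adjusted p = 0.0203). Without that array it differed by 0.51, and the sodium channel gene Scn10a went from 0.75 (SE 0.27, adjusted p = 0.0350) to 0.31 (adjusted p = 0.106). Of genes of Schwann cells, which myelinate roots and nerves, 5 were higher and 3 lower of 10 (median 0.35). Egr2 (1.2, SE 0.16), also in the list of immediate early genes, and Dhh (0.84, SE 0.14) were up. Pllp (-1.81, SE 0.17) and Sox2 (-1.39, SE 0.17), both expressed by cord glia too, were down. The higher count was 3 without lesion site array 2, caudal array 1 or 2, or rostral array 2. Of 8 tested skeletal muscle genes 5 were higher and 2 lower (median 2.41), and with no filter 13 were higher. The lower count was 1 without lesion site array 1 or 2. Acta1, the actin of skeletal muscle, stood at 7.56, 9.67 and 11.07 against 6.44 to 6.97 (2.82, SE 0.57, adjusted p = 0.00183), and at 2.00 without array 3. All 3 lesion site arrays were above the cord beside them.

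Of the neurotrophin system, to which the loaded tubes of the series relate, 2 receptor genes were lower in the gap and 1 was higher. Ntrk2, the receptor of BDNF, stood at 9.17, 8.69 and 8.73 against 10.53 to 10.87 (-1.81, SE 0.12, adjusted p = 3.2e-06), and Ntrk3, the receptor of neurotrophin-3, at 5.50, 5.96 and 5.09 against 6.39 to 7.13 (-1.28, SE 0.19, adjusted p = 2.7e-04). For both the gap lay below all neighbouring arrays. Ngfr, the low affinity receptor, stood at 7.47, 7.91 and 7.32, above 6.67 to 7.20 (0.56, SE 0.13, adjusted p = 0.00389). Bdnf stood at 6.27, 7.11 and 5.94 and overlapped neighbouring cord at 6.29 to 7.03 (-0.27, SE 0.21, adjusted p = 0.298); without lesion site array 2 it passed (-0.60, adjusted p = 0.00443). Ntf3, neurotrophin-3 itself, lay at 4.59 to 4.92 in the gap and 4.48 to 4.89 beside it, under the level at which genes were tested. In all 7 of 11 neurotrophic genes were lower, among them the GDNF co-receptor gene Ret (-1.78, SE 0.38), and 2 higher, Ngfr and the growth factor gene Igf1 (0.81, SE 0.17).

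Axon guidance genes moved both ways, 7 higher and 10 lower of 21 (median 0.03). The higher ones were led by the secreted cues Slit3 and Ntn1 (1.10, SE 0.16) and the receptor gene Nrp1 (1.08, SE 0.14). The lower ones were led by Sema4d, a semaphorin of oligodendrocytes (-2.05, SE 0.19), and the receptor genes Robo2 (-1.37, SE 0.18) and Ephb1 (-1.36, SE 0.16). Sema4d stood at 7.24, 6.61 and 7.12 against 8.61 to 9.44, with 10.86 in uninjured cord, so the gap was lowest and uninjured cord highest.

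Of 12 genes of brain endothelium and its barrier 8 were lower and 3 higher (median -0.43). The higher were Lef1, Pglyrp1 and Ly6c. In ET rostral array 2, high in neutrophil genes, Pglyrp1 stood at 9.38 and Ly6c at 10.23. In the other neighbouring ET arrays they stood at 6.42 to 7.16 and 7.12 to 8.50. Which cells gave the RNA of Pglyrp1 and Ly6c was not tested. The transporter genes Slco1c1 (-2.18, SE 0.18), Slco1a4 (-1.60, SE 0.16) and Mfsd2a (-1.29, SE 0.13) were lowest. Slco1c1 and Slco1a4 are found in other cells of the brain too. Slco1c1 stood at 7.46, 6.57 and 6.55 against 8.96 to 9.10. Of 16 general and activated endothelial genes 5 were higher and 3 lower (median 0.06). The angiogenic tip cell gene Esm1 (1.33, SE 0.19) and the adhesion genes Icam1 (0.88, SE 0.10) and Selp (0.83, SE 0.17) were higher, and Apln (-1.42, SE 0.20), Vcam1 (-1.18, SE 0.17) and Vwf (-0.72, SE 0.27) lower. Of 9 genes of pericytes and smooth muscle Des (1.18, SE 0.18) and Pdgfrb (0.90, SE 0.13) were higher, and Tagln (-1.55, SE 0.12) and Rgs5 (-0.76, SE 0.19) lower. In ET rostral and caudal array 3, the arrays with high muscle genes, Des stood at 8.77 and 8.99. In the other neighbouring ET arrays it stood at 7.55 to 7.86. The part of muscle in its difference was not tested. The less bright probe sets of Pdgfrb differed by 0.05 and 0.10. Tagln, transgelin, stood at 10.65, 10.37 and 10.53 in the gap against 11.61 to 12.26 beside it and 9.31 in uninjured cord.

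Metabolic genes divided between glycolysis and mitochondria. Of 27 genes of hypoxia and glycolysis 22 were higher and 2 lower (median 0.44). Slc16a3, the lactate exporter of glycolytic cells, stood at 10.77, 11 and 11.34 against 7.91 to 8.92 (2.52, SE 0.20, adjusted p = 6.6e-06), and the collagen hydroxylase gene P4ha2 (1.86, SE 0.18) and the pH regulator gene Car9 (1.42, SE 0.27) followed. The lower members were Pfkp (-0.61, SE 0.10) and Hk1 (-0.56, SE 0.08), the enzymes of glycolysis that brain favours. Of 25 genes of the respiratory chain 20 were lower and 0 higher (median -0.45), for instance Ndufa5 (-0.76, SE 0.17). Of 17 cholesterol synthesis genes, a pathway that oligodendrocytes use for myelin, 16 were lower and 0 higher (median -0.79), led by Sc5d (-1.80, SE 0.15). Sc5d stood at 9.17, 9.03 and 8.50 in the gap, at 10.45 to 10.88 beside it and at 11.65 in uninjured cord.

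Of 28 cell cycle genes 21 were higher and 0 lower (median 0.59); 10 were higher without lesion site array 3, and 2 were lower without rostral array 2. Tyms, thymidylate synthase, stood at 8.85, 8.83 and 8.90 against 7.56 to 8.26 (0.98, SE 0.14), with 6.30 in uninjured cord. Neighbouring cord lay above uninjured cord by a median of 2.54 for this list, and the gap lay above both. Of 20 immediate early and stress transcription factor genes 12 were higher and 0 lower (median 0.77), led by Ier3 (1.46, SE 0.10), Dusp1 (1.27, SE 0.14) and Egr2. Of 16 chaperone and unfolded protein genes 8 were higher and 0 lower (median 0.38), led by Trib3 (1.13, SE 0.07), and 4, 5 and 3 were without lesion site array 1, 2 or 3, and 4 without caudal array 2. Of 3 adipocyte genes Fabp4, which macrophages and endothelium also express, was higher (1.22, SE 0.27), and Lipe (-0.65, SE 0.10) and Plin4 (-0.58, SE 0.17) were lower. The less bright probe set of Lipe (mean level 8.14 against 8.47) differed by -0.02.

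Against rostral cord 5503 genes (49.2%) were called, 2625 higher and 2878 lower (at least 2-fold, 646 or 5.77% and 866 or 7.74%), and against caudal cord 6076 (54.3%), 3052 higher and 3024 lower. Both comparisons share the lesion site arrays; 5193 genes were called in the same direction in both and 0 in opposite directions. Rostral and caudal cord were not told apart by limma in any gene: 0 of 11187 (0%) passed, with 196 at an unadjusted p under 0.05, and 1 passed with array weights, with a stricter filter, or without lesion site array 1. The smallest adjusted p was that of Hoxd9, a gene of positional identity along the body axis. It stood at 6.78, 7.06 and 6.92 rostrally and at 8.08, 7.99 and 8.02 caudally (rostral minus caudal -1.11, SE 0.13, adjusted p = 0.0646), with no overlap. Hoxa10 was ordered likewise, at 7.45 to 7.86 rostrally, 8.70 to 8.73 caudally and 6.33 to 7.23 at the lesion site. Of 12 Hox genes 6 were higher at the lesion site than in neighbouring cord and 4 lower (median 0.09), Hoxa10 lowest (-1.43, SE 0.17) and Hoxc4 highest (0.79, SE 0.09).

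With an empty chitosan tube in the gap the comparison, in arrays that share none with LC, again had all neuron and myelin genes lower. Part of the collagen genes differed less from neighbouring cord. In ET 6482 of 11186 genes (57.9%) were called, 3313 higher (29.6%) and 3169 lower (28.3%), or 4135 and 2788 after quantile normalization and 4228 and 2705 after scaling to the 75th percentile. At least 2-fold, 340 were higher (3.04%) and 1027 lower (9.18%). Of 6409 genes called in LC and tested in ET, 4664 were called in the same direction in ET (72.8% of these and 72.0% of the ET calls) and 94 in the opposite direction. All 24 neuron genes and all 23 myelin genes were lower in ET too (medians -2.17 and -1.56). The difference between the arms, tested directly, was called for 1162 of 11405 genes (10.2%), 352 with the lesion site relatively higher in ET (3.09%) and 810 lower (7.1%). The split depended on scaling: 626 and 663 after quantile normalization, 840 and 563 at the 75th percentile. The count was 683 without LC lesion site array 2, and 760 and 698 without ET lesion site array 1 or 2.

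Of collagen and matrix genes 9 of 28 had a lower difference in ET and 0 a higher one, of the TGF-beta list 7 of 22 and 0, and of matrix proteases 6 of 18 and 1. The mean level of the collagen list was 11.67 to 11.80 in the ET gap and 11.86 to 12.17 in the LC gap. Caudally it was 10.65 to 11.10 in ET and 10.33 to 10.54 in LC, and rostrally 10.38 to 10.99 and 10.31 to 10.43. The gap was thus lower and caudal cord higher in ET, while rostral cord overlapped. Mmp13 stood at 6.79, 6.6 and 7.19 in the ET gap and 4.60 to 5.68 beside it, against 8.06 to 9.31 in the LC gap (ET minus LC -2.47, SE 0.29, adjusted p = 1.0e-04). The ET gap lay wholly below the LC gap. Complement genes shifted both ways, 4 up and 6 down of 13, with C1s at -1.29 (adjusted p = 1.0e-04). Of 11 resident microglia genes 7 had a higher difference in ET and 1 a lower one. Aif1, lower in the LC gap, differed by 0.19 in ET (adjusted p = 0.228), a shift of 1.09 (adjusted p = 0.00179). Fcgr3a, an Fc receptor gene of phagocytes, stood at 9.76 to 10.56 in the LC gap and 11.24 to 11.99 beside it, but at 11.30 to 11.56 and 11.19 to 11.40 in ET (1.71, SE 0.23, adjusted p = 4.2e-04). Of 11 Schwann cell genes 6 had a lower difference in ET and 1 a higher one; the list's mean level was 8.28 to 8.35 in the ET gap and 8.76 to 9.18 in the LC gap.

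In ET 29.6% of all tested genes were called higher, and the 2 chemokine lists lay near that share. Neutrophil-attracting chemokine genes were higher in ET in 1 of 3, CC chemokine genes in 3 of 10 and neutrophil genes in 3 of 7, with 0 lower. Without ET rostral array 2 these counts were 3 of 3, 8 of 10 and 6 of 6. Cxcl2 stood at 10.38, 10.61 and 10.43 in the ET gap, at 5.93, 12.05 and 7.87 rostrally and at 7.06, 7.66 and 7.82 caudally, so only rostral array 2 lay above the gap (2.41, SE 0.97, adjusted p = 0.0524). Without that array it differed by 3.27 (SE 0.35, adjusted p = 2.5e-05), and Il1b went from 1.13 (adjusted p = 0.287) to 1.91 (adjusted p = 7.1e-04). The difference between the arms was not called for Cxcl2 with that array (-1.33, SE 1.2, adjusted p = 0.518) or without it (-0.48, SE 0.62, adjusted p = 0.677).

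Set against days 10 to 30, with the same day 3 LC arrays in the contrast, day 3 had the smaller deficit of neuron genes and the larger excess of red cell and platelet genes. Of 11698 genes 2250 (19.2%) changed their lesion site difference, 1063 upwards (9.09%) and 1187 downwards (10.1%), of which 197 (1.68%) and 367 (3.14%) by at least 1 log2 unit. Of the neuron list 21 of 24 fell further and 0 rose, and its median went from -1.80 on day 3 to -2.64, -3.75 and -3.54 on days 10, 20 and 30. Gad1, which makes GABA, differed by -1.87 on day 3 and by -4.16, -4.52 and -5.50 later (change -2.85, SE 0.38, adjusted p = 4.9e-06); its level in neighbouring cord stayed at 10.05 to 10.25. Of the myelin list 13 of 23 fell further and 2 rose, with Mobp among those falling (-2.61, SE 0.31), and of resting astrocyte genes 12 of 19 fell. Mobp was read from its brightest probe set, which differed by -1.13 on day 3. Its less bright probe sets already differed by -2.51 and -2.47 then, so the size of its fall may depend on the probe set. Erythrocyte (4 of 6) and platelet genes (4 of 5) and 13 of 27 genes of hypoxia and glycolysis also fell, with 0 rising in these lists. The erythrocyte median went from 1.60 to 0.90, 0.01 and 0.38.

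Other lists rose after day 3. All 8 MHC class II genes did, their median going from 0.10 to 1.80, 1.97 and 1.87. RT1-Bb differed by 0.14 on day 3 and by 2.73, 5.60 and 2.41 later (change 3.44, SE 0.73, adjusted p = 0.00102). So did 11 of 14 genes of T and NK cells, 12 of 16 general endothelial genes, 7 of 11 pericyte genes, 8 of 14 CC chemokine genes and 8 of 13 complement genes, with 0 falling in these lists. Mmp3, stromelysin, stood at 7.97, 6.19 and 6.09 in the gap on day 3 and overlapped neighbouring cord (-0.73, SE 0.35, adjusted p = 0.0981); later it differed by 2.92, 6.19 and 5.23 (change 5.51, SE 0.43, adjusted p = 8.8e-10). Lcn2 and Tagln, lower in the gap on day 3, reversed: Lcn2 differed by -2.43, -0.18, 2.61 and 0.88 on days 3, 10, 20 and 30, and Tagln by -1.55, 1.37, 1.65 and 1.86. For Tagln the level of neighbouring cord fell from 12.06 to 10.01, 9.83 and 9.5, while that of the gap went from 10.51 to 11.39, 11.47 and 11.36. Of the collagen list 4 of 28 genes rose and 0 fell, with medians of 1.81, 1.91, 2.10 and 2.81.

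**Figure D4:**
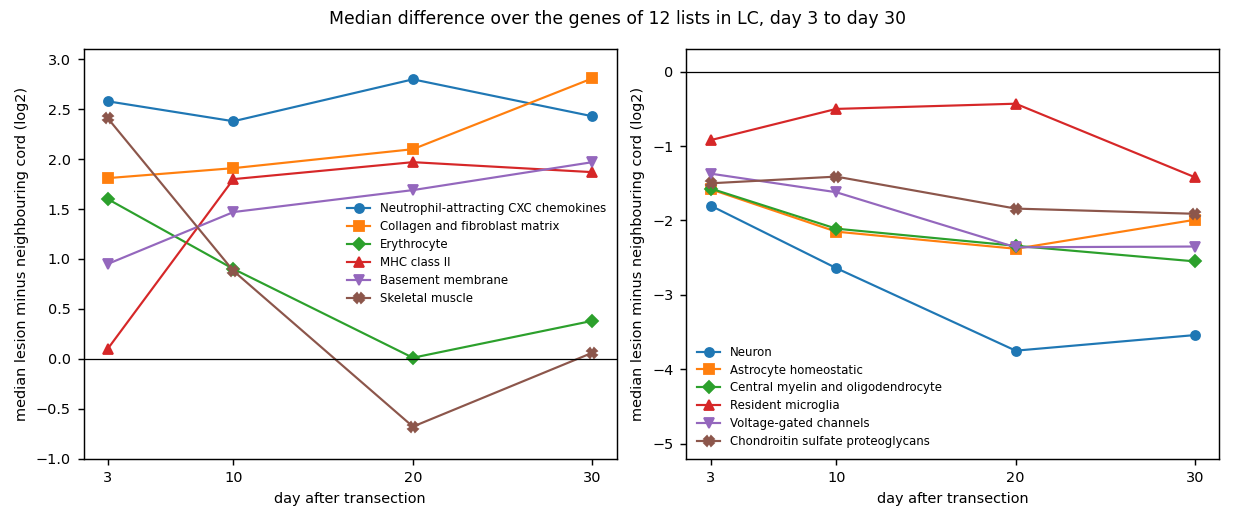
Median difference between lesion site and neighbouring cord (log2) over the genes of 12 lists tested on day 3, in LC on days 3, 10, 20 and 30 after transection (3 arrays per segment and day). Lists that are higher in the gap on day 3 or later are on the left, lower ones on the right; MHC class II goes from 0.10 to 1.80 and neuron from -1.80 to -2.64 between days 3 and 10.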

How the data were processed

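The authors' deposited table holds log2 values, computed by RMA in Affymetrix Expression Console from images read with GCOS, per the submitters' processing notes; versions and the arrays normalised together are not given in the sources used here. The values were used as they stand. Of 31099 probe sets 20826 had 1 gene symbol; 14217 genes were each read from their brightest probe set by mean, and 4127 tested genes had several. RMA and probe position keep levels of different genes from being compared.

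Testing required a level over the 40th percentile in 3 or more arrays of a fit; 268 genes passed only through the lesion site arrays, and 198 of these were called higher. Linear models used limma 3.58.1 (R 4.3.3), 1 fit for the 9 LC arrays, 1 for ET, 1 for both and 1 for 4 days of LC; two-sided p-values were adjusted across every tested gene (Benjamini-Hochberg). Members and 46 gene lists were chosen with earlier results of these data known. The lists name 846 members, of which 727 were measured; 602 distinct genes were tested and 488 called.

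Named genes were the 12 highest and 12 lowest called with groups apart, the 3 largest called members of each list in each direction, 10 fixed genes (Gfap, Aif1, Cd68, Mbp, Snap25, Ngfr, Ntrk2, Ntrk3, Bdnf and Ntf3) and the 6 highest and 6 lowest of the arm and day comparisons. Of 9 pairs of arrays with the same replicate number 5 had deviations that correlated over 0.1 (-0.02 to 0.44). Pairs with different numbers ran from -0.59 to 0.34. The ranges overlap, and the numbers were not taken as pairs, although this check cannot exclude pairing. On simulated data with 11187 genes the lesion site comparison recovered 38 of 67, 62 of 67 and 66 of 66 genes changed by 0.5, 1 and 2, with 7 false calls. Alternatives were other filters, scalings, probe set rules, priors, array weights, a fit of all LC groups, the replicate number as a block and each array left out.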

Additional observations from a re-analysis of the deposited data

Results flagged for a closer look

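The lesion site difference itself differed between conditions. Between the arms with an empty tube and with no tube, 1162 genes differed on day 3, and between days 10 to 30 and day 3 of LC, 2250 did, each tested as a difference of differences in limma.

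Of the genes with the largest shifts between arms, those relatively lower in ET were Acta1 (-4.71), the B cell chemokine gene Cxcl13 (-3.66), the muscle creatine kinase gene Ckm (-3.14), the pigment cell gene Tyrp1 (-2.65), Mmp13 (-2.47) and Mlip (-2.42). Those relatively higher were Gpr84 (1.14), LOC102555173 (1.15), Lhfpl3 (1.16), Rhox5 (1.19), Fcgr3a (1.71) and Spetex2l1 (2.22). Acta1 stood at 10.15 and 10.65 in ET rostral and caudal array 3, the arrays with high muscle genes, and at 5.99 to 6.19 in the other neighbouring ET arrays; without both its shift was -3.26 (adjusted p = 0.0116), and without LC lesion site array 3 it was -3.89 (adjusted p = 0.107). Ckm lost its call without LC lesion site array 3 (-2.58, adjusted p = 0.0992), as did Gpr84 (1.00, adjusted p = 0.0982). Without LC lesion site array 2, Acta1 (adjusted p = 0.0985), Ckm (adjusted p = 0.0848), Gpr84 (adjusted p = 0.115) and LOC102555173 (0.94, adjusted p = 0.0651) lost theirs. Without both ET arrays Ckm was not tested and Gpr84 was not called (adjusted p = 0.0863). Cxcl13 stood at 7.57 to 11.41 in neighbouring ET cord and at 6.08 to 6.6 in that of LC, while the gaps lay at 6.31 to 6.77 and 6.37 to 8.14, so the arms differed in neighbouring cord. Mlip stood at 8.19 to 8.33 in the ET gap and 10.60 to 11.19 in the LC gap, with 9.66 to 10.02 and 9.72 to 10.21 beside them, and Spetex2l1 at 8.08 to 8.76 and 5.81 to 6.05 in the gaps.

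Of the largest shifts between days, those downwards after day 3 were Acta1 (-3.13), Car3 (-3.08), Gad1 (-2.85), the serotonin receptor gene Htr2c (-2.82), the sodium channel gene Scn1a (-2.70) and Mobp (-2.61, on its brightest probe set). Acta1 lost its call without day 3 lesion site array 3 (-2.31, adjusted p = 0.157) or array 2 (-3.01, adjusted p = 0.0777). Those upwards were the collagen gene Col6a5 (2.79), the chemokine gene Cxcl6 (3.04), Tagln (3.18), RT1-Bb (3.44), Lcn2 (3.53) and Mmp3 (5.51). Col6a5 and Cxcl6 lay at 5.94 and 4.51 in the gap on day 3 and at 10.53 and 9.28 on day 20.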

How the results depend on the processing

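In the LC day 3 comparison of lesion site with neighbouring cord, no named gene changed sign against its call. Signs of single genes were not followed in this way in the other comparisons. With 1 array left out, 2 to 7 of the named genes still tested lost their call. Other named genes no longer passed the filter then, and these are not counted as lost. The 6507 calls of the lesion site against neighbouring cord came to 7061 without a filter, 5391 with the 60th percentile, 6584 after quantile normalization, 6198 with the mean of probe sets and 7166 in a fit of all LC groups. Each array left out in turn gave 5527 to 6867 (2481 to 3556 higher, 2887 to 3311 lower; at least 2-fold, 537 to 692 and 875 to 999), and 432 to 492 of the 488 list genes. It gave 4623 to 5747 against rostral cord (1972 to 2950 higher, 2504 to 2877 lower), 4799 to 6436 against caudal cord (2338 to 3321 and 2461 to 3130), 0 to 1 for rostral against caudal, 5498 to 6691 in ET (2664 to 3357 and 2782 to 3334), 683 to 1315 for ET minus LC (203 to 445 and 477 to 904) and 1690 to 2478 for days 10 to 30 minus day 3 (737 to 1191 and 953 to 1312). Alternatives chosen after seeing the data left out lesion site arrays 2 and 3 together (3476 calls, 1384 higher and 2092 lower) and both neighbouring ET arrays numbered 3 (6412 in ET and 857 for ET minus LC). The gene and list values without ET rostral array 2 were added in the same way; the ET counts without it were 6076 and 1041. Rostral against caudal gave 1 call with the 60th percentile filter and 1 with array weights. Of ET minus LC, 626 were higher after quantile normalization and 840 after scaling to the 75th percentile; the cause was not tested. An alternative took the replicate number as a block, as if arrays of the same number were paired, which the labels do not say. It called 6525 genes against neighbouring cord, 0 between rostral and caudal cord, 6742 in ET, 1443 for ET minus LC and 2351 between days. Ntf3, under the 40th percentile on every array, was not tested.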
